A study of Mus musculus with 11 samples.

Results

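Transcripts of 8 cytokine-response genes were read in every library of a mouse study of B cell acute lymphoblastic leukemia (B-ALL). The genes were the suppressors of cytokine signalling Socs1, Socs2 and Socs3, their relative Cish, the kinase genes Pim1, Pim2 and Pim3, and the cytokine gene Osm. They were picked by gene symbol as known feedback and survival genes of the STAT5 pathway, and all 8 were found among the 24319 genes of each expression table. Leukemic cells came from lymph nodes of 3 mice of genotype Ebf1+/- Pax5+/- (mice 686, 713 and 760), with 2 libraries per mouse. The dHet proB cells were Ebf1+/- Pax5+/- Rag2-/- cells that had not become leukemic, grown for a short time from c-Kit-positive fetal liver cells on OP9 stromal feeder cells in medium with IL-7, Flt3 ligand and stem cell factor, and gave 3 libraries. The wt proB cells, sorted as Fraction BC from bone marrow of Ebf1+/+ Pax5+/+ Rag2+/+ mice, gave 2 libraries. All mice were C57BL/6J. The sources used here do not give their age, the purity of the leukemic cells or the surface markers of the sort. In B-ALL against dHet proB, leukemia, tissue, fetal liver origin, culture and the Rag2 deletion changed together. In B-ALL against wt proB, leukemia, tissue and the Ebf1+/- Pax5+/- genotype changed together. In dHet proB against wt proB, fetal liver origin, culture, the Rag2 deletion and the Ebf1+/- Pax5+/- genotype did. Within each comparison these cannot be told apart.

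IL-7 is the main growth and survival cytokine of mouse proB cells. Its receptor activates the kinases JAK1 and JAK3, which phosphorylate STAT5, and STAT5 dimers enter the nucleus and bind DNA at a TTCNNNGAA motif. STAT5 induces its own brakes, among them CISH and SOCS proteins, which sit on activated receptors or kinases and mark signalling proteins for degradation, and it also induces the PIM serine/threonine kinases, which favour survival and growth. Osm encodes oncostatin M, a cytokine of the interleukin-6 family that is induced by STAT5 in mouse blood cells. Transcript levels of such genes are often used as a readout of STAT5 activity, but phosphorylated STAT5 was not analysed here.

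Levels are given as FPKM, fragments scaled by transcript length and library size, so genes of different length can be compared. The depth of the libraries is unknown and no counting error can be given. The FPKM of a library summed to between 505261 and 638953, and 9850 to 10595 genes reached 1 FPKM. Ebf1 and Pax5 transcripts were present in every library, at 151 to 542 and 35.3 to 101 FPKM, and the 10 B-lineage markers together reached 7014 to 12439 FPKM. Changes are log2 differences of FPKM + 1 from limma, tested two-sided and adjusted by Benjamini and Hochberg over all 11110 tested genes, with the libraries of a mouse averaged. All 8 genes passed the filter for testing. No label says whether libraries of dHet proB, or of wt proB, had an animal or culture of their own, so their spread may be technical. The p-values rest on 1 spread pooled over the B-ALL mice and these proB libraries, and measure no more than that.

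One dHet proB library stood apart from the others of its group for most of these genes. Library 3 had 202 FPKM of Socs1, 817 of Socs2, 50.5 of Socs3, 82.4 of Cish, 669.9 of Pim1 and 117 of Pim2. In libraries 1 and 2 the same genes had 60.6 and 19.4, 85.9 and 146, 2.16 and 3.44, 4.83 and 9.44, 135 and 151, and 8.74 and 8.36 FPKM. On the scale of FPKM + 1, 6 of the 8 genes were 2-fold or more above both other libraries in library 3, and 5 were 4-fold or more above. The ratio of FPKM to the higher of the other libraries ran from 3.33 for Socs1 to 14.7 for Socs3. Of all tested genes, 184 (1.66%) were 2-fold or more above both others in library 3, and 35 (0.315%) were 4-fold or more above. Library 1 had 0.351% of genes above both others and library 2 had 0.900%, and none of the 8 genes was among them. Below both others by 2-fold or more were 0.378%, 1.94% and 1.58% of genes in libraries 1, 2 and 3, with Socs1 in library 2 the only 1 of the 8. Pim3 and Osm were higher in library 3 by a smaller ratio, 1.64 and 1.66. This comparison of single libraries was chosen after the values were seen and has no test.

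**Figure D1:**
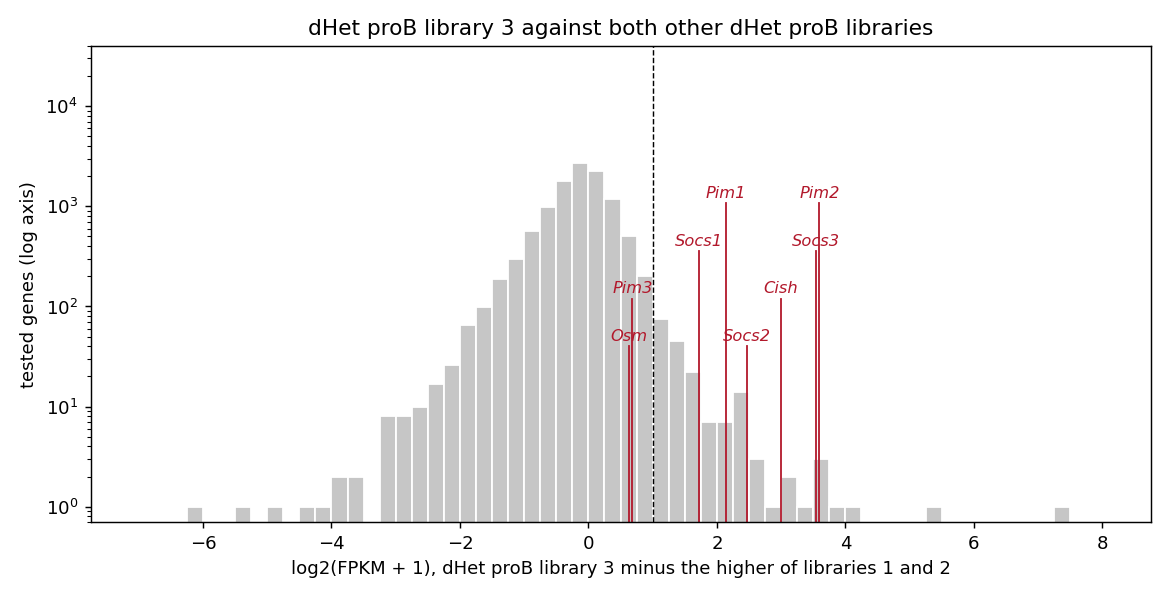
The histogram counts the 11110 tested genes (log axis) by log2(FPKM + 1) in dHet proB library 3 minus the higher of libraries 1 and 2. The dashed line marks a 2-fold difference, and the red lines mark the 8 cytokine-response genes, of which 6 lie beyond it.

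Some other genes known to be induced by STAT5 were also high in library 3. The list of 12 such genes was chosen with earlier results of these data known, and this count too has no test. Of the 12, 5 were 2-fold or more above both other libraries, against 1.66% of all tested genes. They were Bcl2, which encodes a survival protein, the cell cycle gene Ccnd2, the growth regulator Myc, the IL-2 receptor subunit gene Il2ra and the cytokine gene Lta. Lta had 302 FPKM in library 3, against 0.860 and 0.301 in libraries 1 and 2, the largest such difference of all tested genes. Myc had 290.1 FPKM in library 3, against 9.39 and 42.3. The other 7, among them Bcl2l1 and Mcl1, were within 2-fold of at least 1 of the other libraries. Of 14 receptor, JAK and STAT genes only Csf2rb, the common subunit of the IL-3 and GM-CSF receptors, was 2-fold or more above both others, and Il7r had 119 FPKM in library 3 against 120.4 and 71.5. None of the 4 other SOCS genes was.

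Library 3 is titled replicate 3, but another of its labels gives it the number of library 2. Its correlation across genes with libraries 1 and 2 was r = 0.970 and 0.954, and that between libraries 1 and 2 was 0.973. The 8 stromal markers summed to 0.00801 FPKM in library 3, against 1.58 and 1.11 in libraries 1 and 2, with 7 of 8 markers at 0 in library 3. Markers of T and NK cells summed to 8.50 FPKM in library 3, against 11.9 and 2.99, and those of neutrophils and other myeloid cells to 29.1 FPKM, against 51.7 and 13.8. The 8 mast cell and basophil markers were at 0 in all 3 libraries. The part of stromal feeder cells in these differences was not tested. The changes of the 8 genes between groups are given below with and without library 3, since the groups share one estimate of the spread. Library 3 was singled out because these same genes were high in it. The fits without it were thus put forward after the values were seen. Leaving it out narrows the spread of these genes, so their p-values in those fits can be too low.

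The promoter windows of Cish and Socs3 are shown because, among the 6 genes with a window (7 windows), these were the genes that held the STAT motif TTCNNNGAA, which reads the same on both strands. Windows span 250 bases before to 50 bases after the transcript start and come from RefSeq on GRCm38.p6, another build than the mm9 of the expression tables. Capitals mark the motif. The Cish window is chr9:107296409-107296708 on the plus strand, and the Socs3 window is chr11:117969317-117969616 on the minus strand.
Cish: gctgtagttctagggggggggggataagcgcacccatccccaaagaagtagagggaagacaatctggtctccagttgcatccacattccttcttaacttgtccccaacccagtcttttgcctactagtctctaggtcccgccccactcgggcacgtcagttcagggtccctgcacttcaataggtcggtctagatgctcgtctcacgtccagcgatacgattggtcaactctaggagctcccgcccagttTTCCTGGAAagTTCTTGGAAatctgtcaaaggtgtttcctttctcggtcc
Socs3: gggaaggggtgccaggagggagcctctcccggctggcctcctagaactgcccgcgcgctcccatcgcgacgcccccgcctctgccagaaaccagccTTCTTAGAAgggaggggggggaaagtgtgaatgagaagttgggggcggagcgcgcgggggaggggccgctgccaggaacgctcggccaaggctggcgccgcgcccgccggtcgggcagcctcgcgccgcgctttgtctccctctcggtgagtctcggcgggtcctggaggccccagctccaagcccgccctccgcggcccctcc
Cish held 2 copies, the first beginning at the start base and the second 11 bases after it, and Socs3 held 1 copy that begins 154 bases before the start. Of 32851 mouse windows of this length, 8.30% held the motif and 0.457% held it at least 2 times. Windows of Socs1, Pim1, Pim2 and Pim3 did not hold these letters, which says nothing of sites elsewhere. Binding was not analysed here.

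Socs3, Pim and Osm transcripts overlapped between leukemic and wt proB cells, while Socs1, Socs2 and Cish transcripts did not. Socs1, Socs2 and Cish, 3 of the 8 genes, were higher in every B-ALL library than in every wt proB library, as were 23.5% of all tested genes. None of the 8 passed the test in the fit of all groups, against 18.2% of all genes (8.15% higher and 10.0% lower). Without dHet proB library 3, which is in neither of these groups, Socs2 and Cish passed, against 21.2% of all genes (10.1% higher), and they also passed with B-ALL and wt proB alone in the fit, against 20.7%. The median change of the 8 genes was 0.23, against -0.02 for all tested genes. In bulk RNA, fewer cells of a type and less RNA per cell cannot be told apart.

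**Figure D2:**
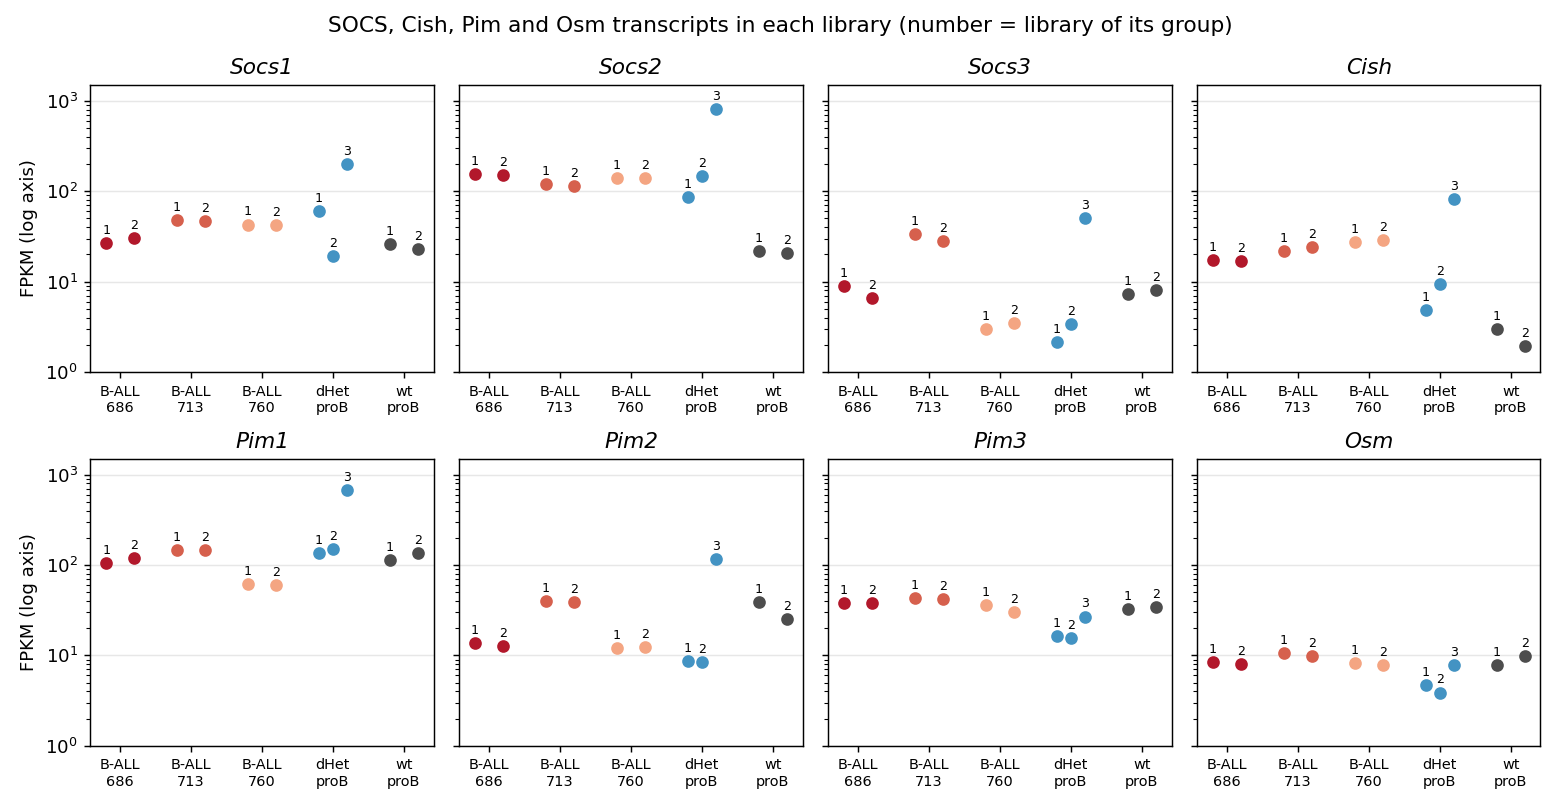
Each point is the FPKM of a gene in a library (log axis), with libraries numbered within their group. Socs2 and Cish lie above the wt proB libraries in all 6 B-ALL and all 3 dHet proB libraries, and dHet proB library 3 is the highest of all libraries for Socs1, Socs2, Socs3, Cish, Pim1 and Pim2.

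Among the brakes, Cish, whose protein competes with STAT5 for docking sites on cytokine receptors, had 17.3 and 17.0 FPKM in mouse 686. Mouse 713 had 21.8 and 24.1 FPKM, and mouse 760 had 27.3 and 28.6. In dHet proB libraries 1 to 3 Cish had 4.83, 9.44 and 82.4 FPKM, and the wt proB libraries had 2.96 and 1.92. Every B-ALL library and every dHet proB library was thus above both wt proB libraries, and the B-ALL libraries lay between libraries 2 and 3 of dHet proB. In B-ALL against wt proB the log2 change was 2.78 ± 0.95 (SE; limma adjusted p = 0.0784), and without dHet proB library 3 it was 2.78 ± 0.32 (adjusted p = 0.00291). In B-ALL against dHet proB it was 0.44 (adjusted p = 0.737), and without library 3, with every B-ALL library above both remaining dHet proB libraries, 1.58 ± 0.32 (adjusted p = 0.0172). In dHet proB against wt proB it was 2.34 ± 0.95 (adjusted p = 0.193) and without library 3 1.20 ± 0.35 (adjusted p = 0.0990), short of the threshold of 0.05 both times.

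Socs2, best known for damping growth hormone receptor signalling, had 154 and 152 FPKM in mouse 686. Mouse 713 had 119 and 115 FPKM, and mouse 760 had 140.4 and 141. The dHet proB libraries 1 to 3 had 85.9, 146 and 817 FPKM, and the wt proB libraries had 22.0 and 21.0. The B-ALL libraries lay close together, inside the range of the dHet proB libraries, and both groups lay above wt proB with no overlap. Every dHet proB library was above every wt proB library for Socs2 and Cish, as for 18.9% of all tested genes, and below for Pim3 and Osm, as for 24.1%. Socs2 averaged 137 ± 18.1 FPKM in B-ALL (SD, n = 3 mice) and 21.5 ± 0.698 FPKM in wt proB (SD, n = 2). The log2 change in B-ALL against wt proB was 2.61 ± 0.79 (SE; limma adjusted p = 0.0546), just short of the threshold, and without dHet proB library 3 it was 2.61 ± 0.24 (adjusted p = 0.00159). In dHet proB against wt proB Socs2 rose by 3.28 ± 0.79 (adjusted p = 0.0400), and by 2.33 ± 0.26 (adjusted p = 0.00505) without library 3. It was the 1 gene of the 8 that passed in that comparison, against 8.68% of all tested genes (2.18% higher and 6.50% lower). The call was lost in 7 of 26 alternative settings, with adjusted p = 0.255 and 0.269 when wt proB library 1 or 2 was left out. Against dHet proB, B-ALL differed by -0.68 (adjusted p = 0.514), and by 0.27 (95% interval -0.30 to 0.85, adjusted p = 0.441) without library 3.

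Socs1, a direct inhibitor of JAK kinases, had 26.7 and 30.7 FPKM in mouse 686. Mouse 713 had 47.6 and 46.5 FPKM, and mouse 760 had 42.9 and 42.5. Libraries 1 to 3 of dHet proB had 60.6, 19.4 and 202 FPKM, and the wt proB libraries had 26.1 and 22.8. Every B-ALL library was above wt proB, the lowest by less than 1 FPKM, and the dHet proB libraries spread on both sides of all others. The log2 change in B-ALL against wt proB was 0.64 ± 0.79 (SE; limma adjusted p = 0.597), and 0.64 ± 0.45 (adjusted p = 0.339) without dHet proB library 3. It was -0.68 (adjusted p = 0.513) in B-ALL against dHet proB and 1.32 (adjusted p = 0.381) in dHet proB against wt proB. Without library 3 these became 0.16 (adjusted p = 0.821) and 0.48 (adjusted p = 0.625).

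Socs3, which inhibits JAK kinases bound to receptors such as gp130, spanned a wide range among the leukemic mice. It had 9.03 and 6.56 FPKM in mouse 686. Mouse 713 had 33.3 and 27.8 FPKM, and mouse 760 had 2.97 and 3.53. In dHet proB libraries 1 to 3 Socs3 had 2.16, 3.44 and 50.5 FPKM, and the wt proB libraries had 7.26 and 8.004. Mouse 713 was above wt proB, mouse 760 below it and mouse 686 at about its level. The log2 change was 0.28 ± 1.21 in B-ALL against wt proB (SE; limma adjusted p = 0.888), 0.23 ± 1.09 in B-ALL against dHet proB (adjusted p = 0.900) and 0.06 ± 1.21 in dHet proB against wt proB (adjusted p = 0.987). Without dHet proB library 3 the last 2 were 1.49 ± 0.75 (adjusted p = 0.192) and -1.20 ± 0.82 (adjusted p = 0.446).

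Among the kinases, Pim1, a frequent partner of Myc in mouse lymphoma, had 106 and 120.2 FPKM in mouse 686. Mouse 713 had 147 and 145 FPKM, and mouse 760 had 61.6 and 59.8. The dHet proB libraries 1 to 3 had 135, 151 and 669.9 FPKM, and the wt proB libraries had 112 and 137. Mouse 760 was below every proB library, and mice 686 and 713 lay in or next to the range of wt proB. The log2 change was -0.31 ± 0.67 in B-ALL against wt proB (SE; limma adjusted p = 0.775), -1.25 ± 0.60 in B-ALL against dHet proB (adjusted p = 0.159) and 0.94 ± 0.67 in dHet proB against wt proB (adjusted p = 0.472). Without library 3 the last 2 shrank to -0.51 ± 0.35 (adjusted p = 0.324) and 0.20 ± 0.38 (adjusted p = 0.809).

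Pim2, which is highly expressed in many lymphoid cells, had 13.8 and 12.8 FPKM in mouse 686. Mouse 713 had 40.1 and 39.0 FPKM, and mouse 760 had 12.01 and 12.5. Libraries 1 to 3 of dHet proB had 8.74, 8.36 and 117 FPKM, and the wt proB libraries had 38.9 and 25.3. Mouse 713 was above both wt proB libraries and the other mice below them, and dHet proB libraries 1 and 2 were the lowest of all libraries. The log2 change was -0.71 ± 1.06 in B-ALL against wt proB (SE; limma adjusted p = 0.667), -0.16 ± 0.95 in B-ALL against dHet proB (adjusted p = 0.920) and -0.55 ± 1.06 in dHet proB against wt proB (adjusted p = 0.819). Without library 3 the last 2 were 1.05 ± 0.49 (adjusted p = 0.163) and -1.76 ± 0.53 (adjusted p = 0.107).

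Pim3, the third kinase of the family, had 37.7 FPKM in both libraries of mouse 686. Mouse 713 had 43.5 and 42.1 FPKM, and mouse 760 had 36.2 and 30.4. The dHet proB libraries 1 to 3 had 16.4, 15.4 and 26.9 FPKM, and the wt proB libraries had 32.6 and 34.2. All dHet proB libraries, library 3 included, lay below all other libraries. Pim3 was higher in B-ALL than in dHet proB by 0.95 ± 0.22 on the log2 scale (SE; limma adjusted p = 0.0180), and by 1.20 ± 0.15 (adjusted p = 0.00475) without library 3. It was the 1 gene of the 8 that passed in that comparison, against 25.5% of all tested genes (14.5% higher). The call was lost without mouse 686 (adjusted p = 0.0585), without dHet proB library 1 (0.0685) and with libraries scaled to a common sum (0.0539). In dHet proB against wt proB its change was -0.78 ± 0.24 (adjusted p = 0.0972), and -1.03 ± 0.17 (adjusted p = 0.0161) without library 3. B-ALL and wt proB differed by 0.17 (95% interval -0.39 to 0.73, adjusted p = 0.656).

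Osm had the narrowest range of the 8 genes. It had 8.50 and 8.01 FPKM in mouse 686. Mouse 713 had 10.5 and 9.86 FPKM, and mouse 760 had 8.15 and 7.83. The dHet proB libraries 1 to 3 had 4.70, 3.88 and 7.82 FPKM, and the wt proB libraries had 7.86 and 9.74. Every B-ALL library was above every dHet proB library, as for Pim3 and for 19.5% of all tested genes, but library 3 lay within 0.1 FPKM of the lowest B-ALL library. The log2 change was 0.64 ± 0.24 in B-ALL against dHet proB (SE; limma adjusted p = 0.0897) and 0.89 ± 0.19 (adjusted p = 0.0201) without library 3. It was -0.64 ± 0.27 in dHet proB against wt proB (adjusted p = 0.215), -0.89 ± 0.21 (adjusted p = 0.0531) without library 3, and 0.00 ± 0.27 in B-ALL against wt proB (95% interval -0.63 to 0.63, adjusted p = 0.998).

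**Figure D3:**
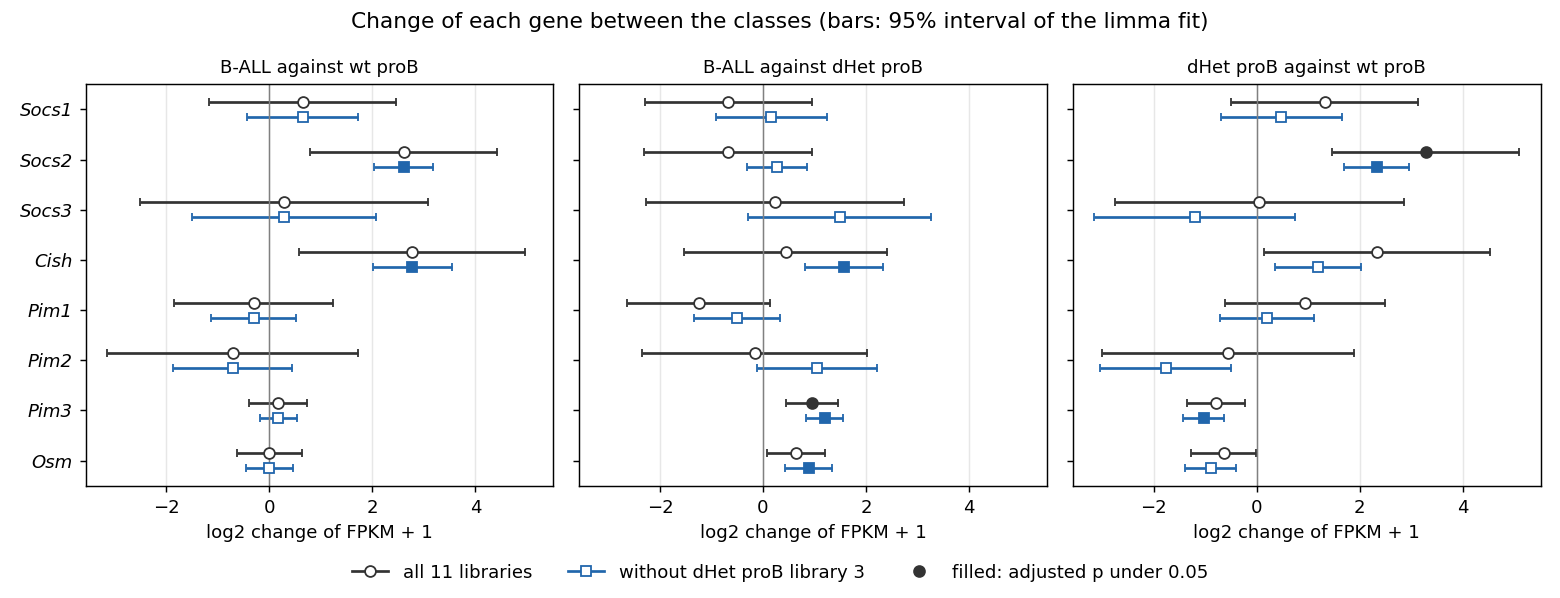
Log2 change of FPKM + 1 for each gene in the 3 comparisons, with 95% intervals, in the fit of all 11 libraries (circles) and without dHet proB library 3 (squares). Filled symbols have an adjusted p below 0.05. Without library 3 the intervals of Socs2 and Cish in B-ALL against wt proB shrink around the same change.

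In the fit without dHet proB library 3, B-ALL exceeded dHet proB in 3 of the 8 genes, Cish, Pim3 and Osm, against 22.8% of all genes tested in that fit (13.4% higher). In the same fit dHet proB differed from wt proB in 2 of 8, with Socs2 higher and Pim3 lower, against 7.24% of all genes (1.52% higher and 5.71% lower). The comparisons with wt proB share the same wt proB libraries, and those with dHet proB the same dHet proB libraries. The median change of the 8 genes in B-ALL against dHet proB was 0.97 without library 3 and 0.03 with all libraries, against 0.04 for all tested genes both times. The median in dHet proB against wt proB was -0.34 without library 3 and 0.50 with all libraries, against -0.04 for all tested genes both times, so its sign turned on that library. In B-ALL against wt proB, where the changes themselves do not use library 3, the limma adjusted p without it was 0.805 for Socs3, 0.555 for Pim1, 0.326 for Pim2, 0.448 for Pim3 and 0.997 for Osm.

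Ranked by the median over libraries, Socs2 and Pim1 were the highest of the 8 genes in B-ALL, with 140.4 and 113 FPKM, and in dHet proB, with 146 and 151 FPKM. Their ranges overlapped in both groups. In wt proB, Pim1 was highest at 125 FPKM, with no overlap with the next genes, while Pim3 at 33.4 and Pim2 at 32.1 FPKM overlapped and Socs2, at 21.5, came 5 of 8. Cish came 5 of 8 in B-ALL at 23.0 FPKM and in dHet proB at 9.44 FPKM, and last in wt proB at 2.44 FPKM. Its range overlapped that of Pim2, the next gene, in B-ALL and in dHet proB, and over dHet proB libraries 1 and 2 alone it came 6 of 8 at 7.13 FPKM, below Pim2 at 8.55. The 8 genes together summed to 326 to 463 FPKM in the B-ALL libraries, to 319, 357 and 1973 FPKM in dHet proB libraries 1 to 3, and to 250.1 and 259.97 FPKM in wt proB.

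The leukemic mice spanned the widest ranges in Socs3, Pim2 and Pim1. Mean levels of the mice, as log2(FPKM + 1), spanned 2.89 for Socs3, 1.61 for Pim2 and 1.26 for Pim1, with mouse 713 highest and mouse 760 lowest each time. They spanned 0.70 for Socs1, 0.67 for Cish, 0.38 for Socs2, 0.36 for Pim3 and 0.31 for Osm. In the limma F test on all 11 libraries none of the 8 passed, against 22.3% of the 11293 genes tested. Socs3 came nearest, at adjusted p = 0.168. Without dHet proB library 3, Socs3 (adjusted p = 6.65e-05), Pim1 (0.000449) and Pim2 (0.000454) passed, against 29.4% of genes. With the B-ALL libraries alone in the fit, 6 of the 8 passed, Pim3 and Osm being the exceptions, against 47.7% of genes. Deviations of same-numbered libraries correlated at r = 0.640 between mice 686 and 713, and at 0.135 and 0.207 in the other pairs of mice. A block for the library number takes out dHet proB library 3 by construction. With it Socs3, Pim1 and Pim2 passed in the fit of all groups, against 27.6% of genes. With the block 6 of the 8 passed in the fit of the B-ALL libraries alone, against 51.3%. In the fits that include proB libraries, the test sets the mice against the spread within all 5 groups, dHet proB and wt proB included. With the B-ALL libraries alone it uses the spread between libraries of a mouse. In neither case is it the spread between leukemic animals.

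Markers of B-lineage and other cells also differed between the mice and groups. Of the 10 B-lineage markers, 2 were lower in B-ALL than in wt proB (3 without dHet proB library 3), against 18.2% of all genes called. Against dHet proB 4 were lower in B-ALL, against 25.5% of all genes called. These were Blnk, Pax5, Ebf1 and Rag1, of which Blnk and Pax5 still passed without library 3. The 11 T and NK cell markers summed to 54.1 to 339 FPKM in B-ALL libraries, highest in mouse 760 through Nkg7, against 2.99 to 11.9 FPKM in dHet proB and 39.8 to 44.5 FPKM in wt proB. Of 10 tested, 9 were higher in B-ALL than in dHet proB (4 without dHet proB library 3), where Cd3e, Cd4, Cd8a and Cd8b1 were at 0. The 12 neutrophil and myeloid markers summed to 254 and 255 FPKM in mouse 686, while mouse 713 had 114 and 124 FPKM and mouse 760 had 27.6 and 27.8. Their sum was 13.8 to 51.7 FPKM in dHet proB libraries, and the wt proB libraries had 553 and 572. The 9 plasmacytoid dendritic cell markers summed to 68.8 to 168 FPKM in B-ALL, 122 to 142 FPKM in dHet proB and 688 to 913 FPKM in wt proB. Immediate early genes such as Fos and the heat shock gene Hspa1a, a list of genes that respond to cell handling as well as to signals, fell in both other groups relative to wt proB, all 11 tested, with and without dHet proB library 3, with sums of 440 to 639 FPKM in B-ALL, 362 to 725 in dHet proB and 2534 to 3294 in wt proB. Red cell and megakaryocyte markers together reached up to 10.9 FPKM in a library, mast cell and basophil markers up to 9.25 and stromal markers up to 1.88. The 12 interferon-stimulated genes summed to 126 to 214 FPKM in B-ALL, 86.5 to 140 in dHet proB and 378 to 451 in wt proB. The part of these cells and states in the levels of the 8 genes was not tested.

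The other SOCS genes Socs4, Socs5, Socs6 and Socs7 passed the test in none of the comparisons of all libraries. They summed to 19.8 to 24.4 FPKM in B-ALL, 24.9 to 26.1 FPKM in dHet proB and 26.9 to 28.2 FPKM in wt proB. Socs4 had a log2 change of -0.71 in B-ALL against wt proB (limma adjusted p = 0.0703). Without dHet proB library 3 it was the 1 of the 4 that passed in any comparison of groups, as lower in B-ALL than in wt proB. Among the mice, Socs5 passed the limma F test without library 3 (adjusted p = 0.0397), against 29.4% of all genes.

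The 12 other genes known to be induced by STAT5 moved in both directions. In B-ALL against wt proB 1 was higher and 3 lower: the cell cycle gene Ccnd1 rose by 1.32 (limma adjusted p = 0.0386), while the survival gene Bcl2l1 fell by 1.81 (adjusted p = 0.0142) and the cell cycle gene Ccnd3 by 1.66 (adjusted p = 0.0108). In B-ALL against dHet proB 2 were higher and 2 lower, with Ccnd1 at 98.6 ± 39.1 FPKM in B-ALL (SD, n = 3 mice) and 1.20 ± 0.352 FPKM in dHet proB (SD, n = 3), a rise of 5.42 (adjusted p = 0.000211). Il2rb, a subunit of the IL-2 receptor, rose by 1.83 and is listed at 0 in every dHet proB library, while the cell cycle inhibitor Cdkn1a fell by 2.97 and Bcl2l1 by 1.89. Mean levels of Cdkn1a, as log2(FPKM + 1), spanned 3.48 among the leukemic mice, more than this fall, with mouse 713 highest and mouse 686 lowest. In dHet proB against wt proB none was higher and 2, Ccnd1 and Il2rb, were lower. The medians over the 12 were 0.15, -0.04 and -0.35 in the 3 comparisons, and 0.15, 0.86 and -0.64 without dHet proB library 3. Without dHet proB library 3, 5 of the 12 were higher and 2 lower in B-ALL against dHet proB. In that fit 22.8% of all genes passed (13.4% higher). Myc (3.94, limma adjusted p = 0.00726), Ccnd2 (3.12, adjusted p = 0.00815) and Lta (4.29, adjusted p = 0.0470) joined Ccnd1 and Il2rb. Ccnd3 joined Bcl2l1, and Cdkn1a no longer passed. Myc, Ccnd2 and Lta were among the genes high in library 3, so leaving it out raised their changes by construction. Mean levels of Lta spanned 4.79 among the leukemic mice, more than its change, with mouse 713 highest and mouse 760 lowest. Without library 3 Myc also rose in B-ALL against wt proB, by 2.10 (limma adjusted p = 0.0489), and Il2rb no longer passed in dHet proB against wt proB. Bcl6, a repressor that STAT5 is known to switch off, fell by 1.45 in B-ALL relative to wt proB (adjusted p = 0.0189), and did not exceed 3.14 FPKM in any library.

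Receptor, JAK and STAT genes changed in part. Of 14, none was higher and 1, Jak2 (-0.77), was lower in B-ALL than in wt proB. In B-ALL against dHet proB 2 were higher, the receptor genes Flt3 (3.80) and Il2rg (0.97), and 3 were lower, among them the stem cell factor receptor Kit (-2.32) and the kinase gene Jak2. In dHet proB against wt proB 1 was higher, Kit, by 3.15. Il7r, the IL-7 receptor gene, had 65.5 to 102 FPKM in B-ALL, 71.5 to 120.4 in dHet proB and 59.4 to 74.9 in wt proB and passed in none of the 3. Stat5a and Stat5b passed in none either. With dHet proB library 3 left out these calls held, except that Jak2 no longer passed in B-ALL against wt proB.

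**Figure D4:**
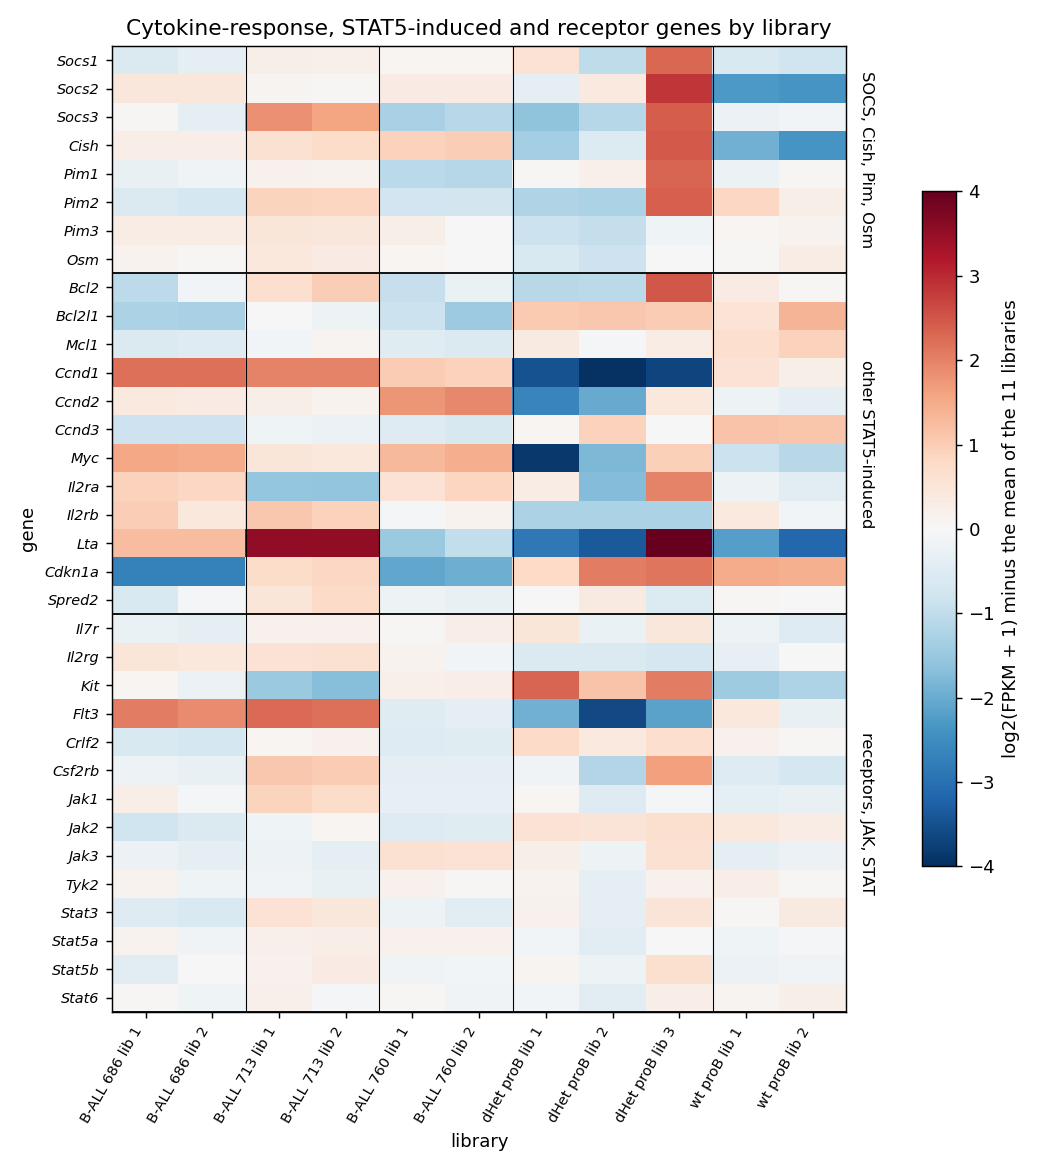
Log2(FPKM + 1) of each gene in each library minus its mean over the 11 libraries, red above and blue below, for the 8 cytokine-response genes, the 12 other STAT5-induced genes and the 14 receptor, JAK and STAT genes. Library 3 of dHet proB is red for Socs1, Socs2, Socs3, Cish, Pim1 and Pim2 and for Bcl2, Myc, Il2ra and Lta.

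Of 11 other inhibitors of JAK-STAT signalling, none was higher and 2, Pias1 and Pias3, were lower in B-ALL than in wt proB, by 0.61 and 0.94. Against dHet proB 1 was higher and 4 lower in B-ALL: Ptpn6, the phosphatase SHP-1, rose by 1.60 (limma adjusted p = 0.00519), and the lower genes were all of the PIAS family. In dHet proB against wt proB Ptpn6 fell by 1.30 and Pias4 rose by 0.63. Genes of 10 PIM kinase substrates were lower in 2 cases in B-ALL against wt proB, the cell cycle inhibitor Cdkn1b by 1.64 and the transcription factor Foxo1 by 1.54. They were lower in 5 cases against dHet proB, Cdkn1a and Foxo1 (-1.77) the most, and in none in dHet proB against wt proB. PIM kinases act on the proteins, which were not measured. Once dHet proB library 3 was left out, Ptpn6 no longer passed in dHet proB against wt proB, and in B-ALL against dHet proB 2 PIAS genes (Pias1 and Pias4) and 2 substrate genes (Cdkn1b and Foxo1) were still lower. Among 9 genes of the oncostatin M receptors and related cytokines, 3 passed the filter, and none of these passed in the 3 comparisons of groups. Among the leukemic mice, Lifr (limma F test adjusted p = 1.99e-05) and Il6st (0.0228) passed, against 22.3% of all genes. Osmr, the specific receptor subunit, did not exceed 0.0574 FPKM in any library.

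The nearest genes to each member, by the root mean square difference of centred log2 levels over 8 units, were found among all tested genes. Pcdh9, a protocadherin, was nearest to Socs2 at 0.49 and to Cish at 0.56, with 7.43 to 15.6 FPKM in B-ALL libraries. Its dHet proB libraries had 3.99, 7.58 and 33.8 FPKM, and its wt proB libraries had 1.20 and 1.78. Bcl2 was nearest to Pim2 at 0.22 and to Socs3 at 0.48, and Xbp1 was among the 3 nearest to both. Bcl2 had 2.16, 2.21 and 37.2 FPKM in dHet proB, so it shared the high library 3 with them. The nearest to Socs1 was Suox at 0.42, and to Pim1 Sft2d2 at 0.39. Pim3 was nearest to Ccnj at 0.11 and Osm to Camta2 at 0.11, and both had Znfx1 among the 3 nearest; Ccnj, Camta2 and Znfx1 were lowest in dHet proB libraries 1 and 2. Without library 3, over 7 units, all 3 nearest genes of Pim3 and 2 of 3 for Osm were kept. Of those of Socs1 and Socs2, 1 of 3 was kept, Suox and Pcdh9, and of those of Socs3, Cish, Pim1 and Pim2 none was kept. The nearest were then Pxdc1 for Socs3 at 0.26, Crnde for Cish at 0.36, Ptprj for Pim1 at 0.13 and Fmnl3 for Pim2 at 0.22.

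Reads of some members could be shared with other loci. Of the 50-base words of its transcripts, Cish shared 9.35%, Pim1 8.78%, Socs2 4.58% and Pim2 1.57% with another gene's transcripts, and Socs1, Socs3, Pim3 and Osm shared none. The words of Cish were shared with 514 genes, those of Socs2 with 127, those of Pim2 with 2 and those of Pim1 with 1. Cish is overlapped on the other strand by Gm17040 and Gm17041, and Pim1 by Gm26885. The expression tables hold no level for these overlapping genes. The sources used here do not say whether counting used strand, so in the shared stretches reads of these genes and their partners cannot be told apart.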

How the data were processed

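RNA of 11 libraries was sequenced. Per the submitters' processing notes, bcl2fastq (2.20.0.422 and 0.3.1), the aligner STAR 2.5.3a, and Cufflinks and Cuffnorm, both 2.2.1, with Cuffdiff, were used on mm9. The authors deposited FPKM per gene. The sources used here do not give the gene annotation or Cuffnorm's scaling. Values are estimates, so whole reads could not be recovered and depth is unknown.

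FPKM was transformed to log2(FPKM + 1), which shrinks changes of low genes. Genes that reached FPKM 1 in 2 or more of 8 units (3 B-ALL mice, with 2 libraries averaged, 3 dHet proB and 2 wt proB libraries) were tested with limma 3.58.1 (R 4.3.3, statmod 1.5.0), all groups sharing a spread with a mean-variance trend, two-sided, at a Benjamini-Hochberg threshold of 0.05. Mice were compared by a limma F test on 11 libraries in 5 groups. Deviations of same-numbered libraries from their group means correlated at over 0.1 in all 3 pairs of mice, so the numbers were taken to pair the libraries among the mice, and in 1 of 7 other pairs of groups. Alternatives changed pseudocount, filter, scaling, trend, groups and libraries.

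The 8 genes and 17 lists (the 8 among them) were chosen with earlier results of these data known; 1 gene of the receptor, JAK and STAT list is not reported here. All 8 are named in every comparison, up to 2 genes per direction from each other list (those with the largest changes among genes that passed), and the 3 nearest genes per member; genes named for dHet proB library 3 were chosen after its values were seen. Promoters are RefSeq's (GRCm38.p6); Socs2 and Osm had no entry.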

Additional observations from a re-analysis of the deposited data

How the results depend on the processing

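With 2 wt proB libraries and unknown depth, the calls rest on few samples. Leaving out 1 library or mouse left 195 to 2460 calls over all genes in B-ALL against wt proB (2017 with all; 275 and 195 without wt proB library 1 or 2, 1055 without mouse 686), 1393 to 2965 in B-ALL against dHet proB (2832 with all; 1393 without dHet proB library 1, 1395 without mouse 686), 76 to 1251 in dHet proB against wt proB (964 with all; 76 and 115 without wt proB library 1 or 2) and 1302 to 3430 among the mice (2513 with all; lowest without a library of mouse 713). It gave 0 to 2, 0 to 3, 0 to 2 and 0 to 3 of the 8 genes in the same order. Without dHet proB library 1, Socs2 passed in B-ALL against wt proB (limma adjusted p = 0.0359), as did 15.7% of all genes. Fitting only the 2 groups compared called 2 of 8 in B-ALL against wt proB (Socs2 and Cish; 20.7% of all genes) and 0 in dHet proB against wt proB (11.4%), where no filter also called 0 (8.17%); the mouse as a random effect called 2 in B-ALL against wt proB (19.7%). With libraries scaled to a common sum, 0 of 8 passed in B-ALL against dHet proB (24.6% of all genes). With only the B-ALL libraries, 5073 genes and 6 of the 8 differed among the mice, and 5460 and 6 with the replicate block added, an alternative chosen after seeing the data.

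Scaling to a common sum moved the median of all genes to -0.22 from -0.02 in B-ALL against wt proB and to -0.12 from 0.04 in B-ALL against dHet proB, and the share of higher calls to 23.8% from 44.9% and to 38.8% from 57.0%. Quantile normalization moved it to 46.5% in B-ALL against dHet proB and, in dHet proB against wt proB, to 41.8% from 25.1%. Small changes turned: with the common sum, Osm (-0.19) and Pim3 (-0.027) in B-ALL against wt proB and Socs3 (-0.013) in dHet proB against wt proB; Osm with library 2 of each mouse alone (-0.034); and Socs3 in dHet proB against wt proB with pseudocounts of 0.1 (-0.062) and 0.5 (-0.0018). Leaving out 1 library or mouse gave, in B-ALL against dHet proB, -0.34 to 1.58 for Cish, -0.78 to 1.05 for Pim2, -1.49 to 0.16 for Socs1, -1.34 to 0.27 for Socs2 and -0.56 to 1.49 for Socs3. In B-ALL against wt proB it gave -0.14 to 0.14 for Osm, -0.58 to 0.051 for Pim1 and -0.51 to 0.94 for Socs3, and in dHet proB against wt proB -1.76 to 0.065 for Pim2 and -1.20 to 0.81 for Socs3. None of these turned values passed the test; the cause was not tested.

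Deviations of same-numbered libraries correlated at 0.135 to 0.640 in the 3 pairs of mice. In the 7 other pairs of groups r was -0.134 to 0.114, with 1 pair over 0.1, so the proB libraries were taken to share only a number. The lowest r of the mice was of the same size as the extreme of the other pairs, so the pairing of the mice is not certain. With the replicate block, number 3 is held by dHet proB library 3 alone, so the block removes that library by construction. It called 2 of the 8 genes in B-ALL against wt proB (21.0% of all genes), 3 in B-ALL against dHet proB (21.6%), 3 in dHet proB against wt proB (8.24%) and 3 among the mice (27.6%). Under the block, Pim2 (1.05), Socs1 (0.16) and Socs2 (0.27) turned in B-ALL against dHet proB and Socs3 (-1.20) in dHet proB against wt proB.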
